A study of Caenorhabditis elegans with 24 samples.

Results

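The response of wild-type *Caenorhabditis elegans* to RNA interference against cco-1 was measured as the difference between 3 libraries of N2 worms on cco-1 RNAi and 3 libraries of N2 worms on control RNAi, out of 24 polyA-enriched RNA-seq libraries in the series. N2 is the standard wild-type laboratory strain. Worms were fed the RNAi bacteria for 2.5 days, beginning as newly hatched larvae, and whole animals were collected at the last larval stage or as young adults. In the cco-1 RNAi group 50% of the bacteria carried the cco-1 construct and the rest the control construct, and in the control group all bacteria carried the control construct. RNA came from whole worms, so all tissues are pooled. The members are all 16927 genes of the table. Of these, 14561 had a mean of at least 1 CPM (reads scaled to a common library total) in at least 1 of the 8 groups of the series and were tested, and 2366 were not. The other libraries entered the estimate of the spread and a comparison at the end. They were N2 worms on elt-2 RNAi and on cco-1 and elt-2 RNAi together, and VC3201, a strain labelled as an atfs-1 mutant, on cco-1 RNAi, elt-2 RNAi, both, or control.

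The gene cco-1, now named cox-5B, encodes a nuclear subunit of cytochrome c oxidase, complex IV of the mitochondrial respiratory chain, which passes electrons from cytochrome c to oxygen through heme and copper centres. Its knockdown in larvae is a standard way to stress mitochondria in the worm. Such stress is signalled to the nucleus by the mitochondrial unfolded protein response, in which the transcription factor ATFS-1 raises mitochondrial chaperones such as hsp-6 and hsp-60. The worm cannot make heme and takes it up with its food through the intestine, an organ that also makes yolk, stores fat, degrades bacteria in its lysosomes and secretes antimicrobial proteins.

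The lowest correlation of a library with another of its group was 0.995 to 0.9965, and the highest with a library of the other group was 0.9856. The first principal component of the 6 libraries held 72.3% of the variance and separated the groups. On the second component control replicate 1 lay at 14.81, against -12.5 and -3.49 for the other control libraries and between -3.54 and 5.66 for the cco-1 RNAi libraries, and leaving it out moved several counts given below. The labels do not say whether replicates came from separate cultures, so p-values measure the spread between these samples, which may be technical. The deposited values had been brought to 1 total in every library, and reads were ranked back from tied low values. At 1 CPM there were 17.52 to 19.32 reads in the cco-1 RNAi libraries and 12.13 to 13.94 reads in the control libraries. At 10 CPM there were 189.5 to 205.7 reads on cco-1 RNAi and 148.7 to 163.8 reads on control.

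The targeted transcript fell. The gene cco-1 lies on chromosome I of WBcel235, positions 9788725 to 9790050, and had 124, 134 and 124 CPM in the cco-1 RNAi libraries, against 267, 276 and 333 CPM in the control libraries. The groups did not overlap, and the mean was 43.7% of that of the control. The change was -1.18 ± 0.08 (SE) on the log2(CPM + 1) scale, with an adjusted p of 4.87e-13 in limma's moderated test over all genes, adjusted after Benjamini and Hochberg. The gene elt-2, which encodes the main GATA transcription factor of the intestine, had 14.1, 14.9 and 12.5 CPM on cco-1 RNAi and 19.2, 16.8 and 16 CPM on control. Its difference of -0.30 ± 0.21 did not pass the test (adjusted p = 0.28 in limma), although the groups did not overlap and it passed when only the 6 libraries compared or only the 12 libraries of N2 were fitted (lowest adjusted p = 0.0264). The gene atfs-1 is given with the stress genes.

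Across all genes, 2541 rose, which is 17.5% of those tested, and 2385 fell, which is 16.4%. Most of these changes were small: under 1.5-fold lay 73.2% of the genes that rose and 72.5% of those that fell, whereas 157 genes (1.08% of those tested) rose at least 2-fold and 189 (1.3%) fell at least 2-fold. A change of 4-fold or more was seen in 26 genes that rose and in 33 that fell. The 3 cco-1 RNAi libraries lay above all 3 control libraries in 3229 genes, 22.2% of those tested, and below them in 3117 genes, 21.4%. Of the genes that rose, 2205 had a mean of at least 1 CPM in both groups and 244 on cco-1 RNAi only, and of those that fell, 2083 had it in both groups and 264 on control only. The median change over all genes tested was 0.01. Whole worms were sequenced, so for every gene below fewer cells of a type and less RNA per cell cannot be told apart. Whether reads were counted by strand is not given in the sources used here, so where a gene shares exon bases with a gene on the opposite strand, reads of both cannot be told apart. Examples are asp-10, hsp-17, hrg-3, gpdh-1, fat-5, acs-22, dgat-2, ctl-2 and dhs-26. Of the genes in the authors' deposited table of genes raised by cco-1 RNAi, 93.2% (1676 genes) rose here, and 66% of the genes that rose here are in that table, whose lowest fold is 1.25.

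**Figure D1:**
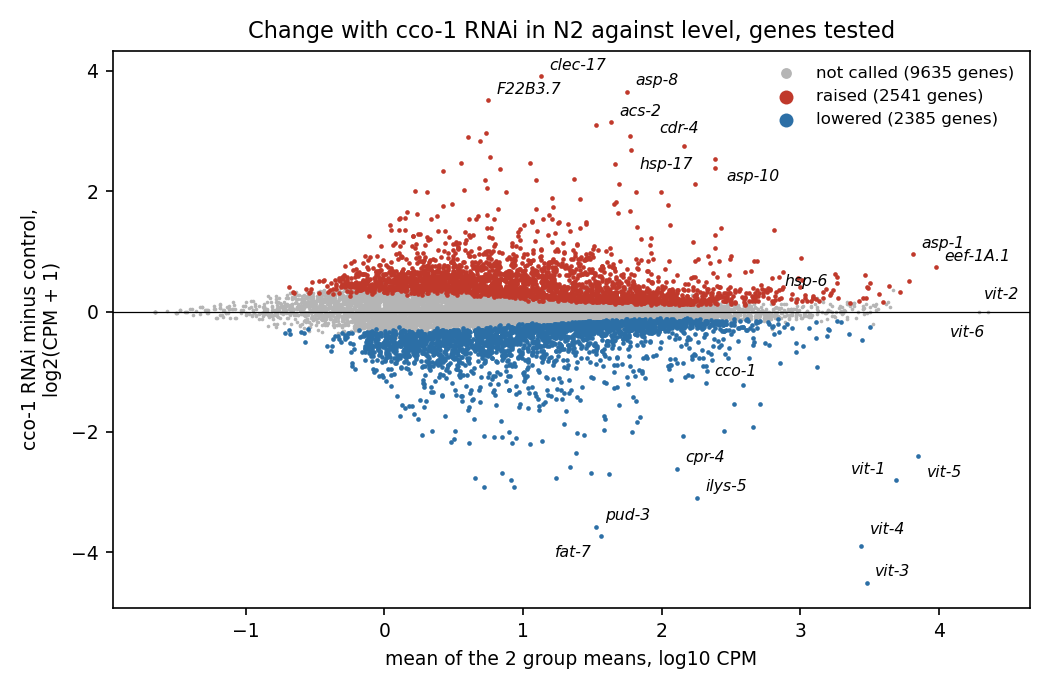
Change with cco-1 RNAi in N2 (y axis, difference in log2(CPM + 1)) against the mean level of the gene (x axis, log10 of the mean CPM of both groups), 1 point per gene tested. The 2541 genes that rose are red, the 2385 that fell are blue and the rest grey. Among the most abundant genes, vit-1, vit-3, vit-4 and vit-5 lie far below 0, at -2.80, -4.50, -3.90 and -2.40, whereas vit-2 and vit-6 lie at 0, since their rank fixes their value.

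The largest of the 15 largest rises, among genes that reached 10 CPM, was that of clec-17, which encodes a C-type lectin-like protein and had 28.4, 24.7 and 24.8 CPM on cco-1 RNAi, against 1.08, 0.336 and 1.08 CPM on control. Every cco-1 RNAi library lay far above every control library, and the change was 3.91 ± 0.16 (adjusted p = 1.55e-17). Next came asp-8, an aspartyl protease gene, with 105, 103 and 106 CPM on cco-1 RNAi and 6.82, 6.81 and 8.72 CPM on control. A gene with no name beyond its sequence, F22B3.7, had 12.6, 9.14 and 11.7 CPM on cco-1 RNAi and was near its limit of detection on control, with 0.022, 0.0808 and 0.0789 CPM. Its control libraries differ by single reads, so no fold is given, and its difference on the log2(CPM + 1) scale was 3.51 ± 0.13.

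The same 15 held the cytochrome P450 gene cyp-33C8, which had 108, 103 and 103 CPM on cco-1 RNAi and 12.2, 12.5 and 14.7 CPM on control. The genes cdr-4 and cdr-2 of 1 family, first described as cadmium-responsive, averaged 254 ± 20.7 and 78.2 ± 6.28 CPM on cco-1 RNAi and 37.1 ± 3.96 and 13.5 ± 0.821 CPM on control (SD, n = 3 each). The glucuronosyltransferase gene ugt-62, whose product conjugates small molecules to sugar, was 5.88 times as high on cco-1 RNAi. The remaining named members of the top 15 were acs-2, clec-4, hrg-2, hsp-17, hsp-16.2, hsp-16.41 and asp-10, now named hrg-7, and B0205.13 also rose, by 2.47 ± 0.12. For no member of the top 15 did the libraries of the groups overlap, which the rule that chose them required.

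The 15 largest falls, chosen by the same rule, reached -4.50 for the yolk gene vit-3. The genes pud-3 and pud-4, neighbours on chromosome V named after proteins that are more abundant in daf-2 insulin receptor mutants, had 4.07, 4.13 and 5.02 CPM and 0.193, 0.494 and 0.728 CPM on cco-1 RNAi. On control they had 53.4, 69.4 and 66.9 CPM and 9.96, 9.59 and 10.5 CPM. Both groups lay wide apart, with changes of -3.57 ± 0.11 and -2.92 ± 0.12. The acid sphingomyelinase gene asm-3 had 1.32, 1.22 and 1.4 CPM on cco-1 RNAi and 15.4, 15.7 and 13.9 CPM on control. The C-type lectin gene clec-190 had 2.42, 0.716 and 0.962 CPM on cco-1 RNAi and 16.7, 15.4 and 16.1 CPM on control. The others were vit-1, vit-3, vit-4, fat-5, fat-7, ilys-5, lys-4, spp-4, thn-2, gpdh-1 and cpr-4, described with their groups.

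**Figure D2:**
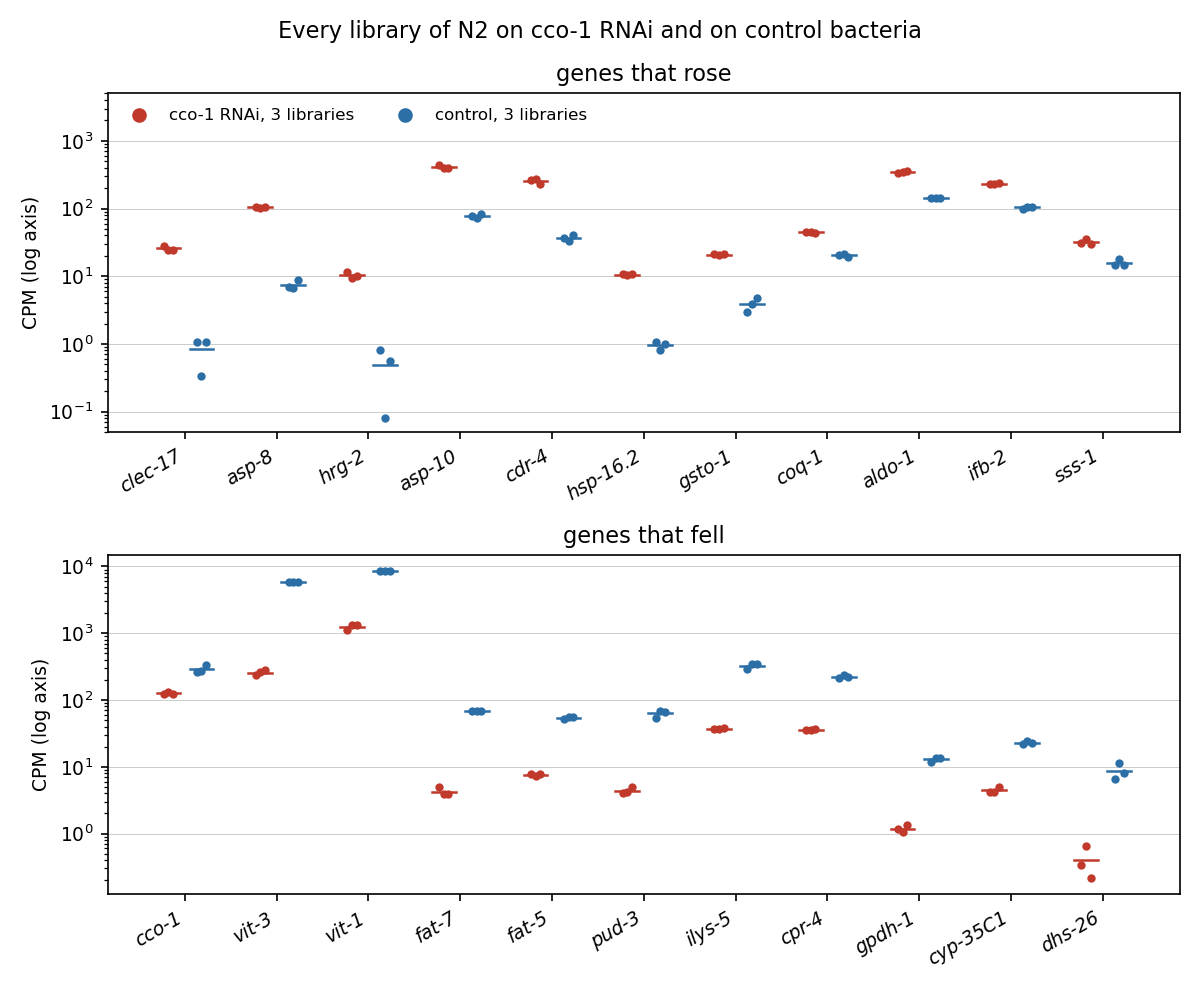
CPM of 22 genes on a log axis in each of the 3 libraries on cco-1 RNAi (red, left of each pair) and the 3 on control (blue, right), with bars at the group means. The upper row holds genes that rose and the lower row genes that fell, and in none do the libraries of the groups overlap. Control values of clec-17, hrg-2 and hsp-16.2, and cco-1 RNAi values of dhs-26 and gpdh-1, are near 1 CPM or below.

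The other nuclear genes of the respiratory chain mostly rose or did not pass. Outside cco-1, 79 nuclear genes for subunits and assembly factors of the chain and of ATP synthase were tested. Of these, 42 rose and 1, nduf-2.2, fell, a call that was lost without cco-1 replicate 2 or control replicate 2. Changes lay between -0.21 and 0.53 with a median of 0.17, against a median of 0.01 and a share raised of 17.5% over all genes. The rises were small: no gene of complexes I to IV or of ATP synthase passed as higher when the test asked for more than 1.5-fold. In complex IV itself, 10 of 22 genes rose. The structural subunit gene W09C5.8, now cox-4, had 579, 541 and 561 CPM on cco-1 RNAi, against 439, 451 and 467 CPM on control. All 3 libraries were higher, by 0.31 ± 0.06 (adjusted p = 0.000189). The gene sco-1, whose product delivers copper to the enzyme, averaged 38.4 ± 1.8 CPM on cco-1 RNAi and 28.7 ± 1.98 CPM on control (SD, n = 3 each). Both genes of heme A synthesis, which were looked up after their values were seen, rose as well. The gene cox-15 averaged 50.4 ± 0.441 CPM on cco-1 RNAi and 40.4 ± 2.34 CPM on control, and cox-10 averaged 12.4 ± 0.196 CPM on cco-1 RNAi and 9.97 ± 1.26 CPM on control. The call of cox-10 was lost without control replicate 2.

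In complex I, the entry point for NADH, 16 of 32 genes rose, led by gas-1 with 0.36 ± 0.05. That count dropped to 10 without cco-1 replicate 1. In complexes II and III with cytochrome c, 9 of 14 rose, among them the cytochrome c gene cyc-2.1, with 809, 852 and 830 CPM on cco-1 RNAi and 573, 664 and 680 CPM on control. In ATP synthase 7 of 12 rose. Its alpha subunit gene H28O16.1, now atp-1, had 3692, 3902 and 3572 CPM on cco-1 RNAi and 2833, 2524 and 2703 CPM on control. The libraries of cyc-2.1 and H28O16.1 separated the groups without overlap, although the changes were only 0.38 ± 0.07 and 0.47 ± 0.06. By CPM H28O16.1 ranked 14 to 18 on cco-1 RNAi and 33 to 40 on control, and its value is set by that rank.

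Of 11 genes of the mitochondrial genome, 7 rose and 0 fell, and without cco-1 replicate 1 4 rose and 1 fell. The complex IV core subunit gene ctc-1 had 710, 644 and 540 CPM on cco-1 RNAi, against 384, 358 and 315 CPM on control. This was a change of 0.84 ± 0.12 (adjusted p = 3.36e-06). The core subunit genes ctc-2 and ctc-3 did not follow it, with differences of -0.24 ± 0.10 and 0.14 ± 0.12 that did not pass. Libraries were enriched for polyA, so these values hold mitochondrial transcripts only as far as they were captured. Of 19 mitochondrial import genes 10 rose and 0 fell, or 1 without control replicate 1. The largest change on that list was 0.68. The gene timm-23 changed by between 0.65 and 0.71 over all settings, and E04A4.5 (timm-17B.1) rose by 0.55 ± 0.06. In contrast, of 70 genes of the mitochondrial ribosome 51 did not pass. The other 19, a share of 27.1% against 17.5% of all genes, rose. That count was 12 without cco-1 replicate 1, 11 without control replicate 2 and 10 without control replicate 1, when 1 fell as well. Of 81 cytosolic ribosomal genes 4 rose and 2 fell, and without single libraries 2 rose (without any cco-1 replicate or without control replicate 1) and between 0 and 6 fell (0 without cco-1 replicate 3 or control replicate 3, 1 without cco-1 replicate 2, 6 without control replicate 1).

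The mitochondrial stress genes gave a mixed picture. Of 15 genes listed as mitochondrial chaperones and proteases 9 rose and 2 fell, but trap-1 and enpl-1 on that list belong to the endoplasmic reticulum in *C. elegans*. Among the other 13 genes, 9 rose and only hsp-60 fell. The largest rise was that of stl-1, which encodes a stomatin-like protein of the mitochondrial inner membrane and had 88.6, 83.6 and 83.5 CPM on cco-1 RNAi and 45.8, 46 and 46.3 CPM on control. The change of 0.87 ± 0.06 stood far outside the spread of the libraries (adjusted p = 4.42e-12). The reporter gene hsp-6 changed by 0.32 ± 0.05, and the prohibitin gene phb-1, named after its value was seen, by 0.25 ± 0.05. The chaperonin gene hsp-60 fell by 0.19 (SE 0.07, adjusted p = 0.0329), a call that was lost without any 1 of cco-1 replicates 1 and 2 and control replicates 1 and 2.

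Of 20 regulators of this response 1 rose and 5 fell, the largest fall being that of atf-5, given below with the genes of amino acid synthesis. Only 3 fell without cco-1 replicate 1, cco-1 replicate 2 or control replicate 1. The 1 that rose was atfs-1, with 85.5, 81 and 84.4 CPM on cco-1 RNAi and 77.9, 71 and 74.6 CPM on control. Its change of 0.17 ± 0.06 (adjusted p = 0.0421) did not pass without cco-1 replicate 1 or 3 or without control replicate 2 or 3. The gene dve-1, a homeobox partner of the response, fell by 0.44 (SE 0.11), and the difference of ubl-5, another partner, was -0.19 ± 0.11 and did not pass.

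Most genes listed as amino acid synthesis under ATF-4, the factor that drives the integrated stress response in mammals, fell. Of 14 genes 9 fell, 1 rose, and the median was -0.39. The lowest change on the list, -0.86, equals that of the gene of the factor, which may be among the 9. Whether the factor acts on these genes here was not tested. The 1 that rose, cth-2, changed by 0.17 and was not called without cco-1 replicate 1 or 2 or without control replicate 1 or 3. The gene of the factor itself, atf-5 in the table and now atf-4, had 93.3, 94.6 and 84.4 CPM on cco-1 RNAi and 158, 175 and 164 CPM on control. Its groups lay well apart, and it fell by 0.86 (SE 0.05, adjusted p = 2.3e-14), although reads of an overlapping gene on the same strand cannot be told apart over 162 bases. The gene alh-13, for an enzyme of proline synthesis, averaged 17.4 ± 0.474 CPM on cco-1 RNAi and 31.6 ± 0.609 CPM on control. The gene mel-32, for a serine hydroxymethyltransferase that links serine to folate metabolism, averaged 381 ± 3.97 CPM on cco-1 RNAi and 541 ± 10.8 CPM on control (SD, n = 3 each). The kinase gene gcn-2, which starts the integrated stress response, fell by 0.31 (SE 0.08).

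Genes for heme uptake, transport and signalling rose. Of 16 genes for iron, heme and copper 9 rose and 2 fell, and all 6 heme-responsive genes on the list were among those that rose, 1 of which was not tested when a group mean of 5 CPM was required. All 6 are given here, including those outside the rule for named genes. They were picked by name with earlier results of these data known, and are not every gene of that name. The gene hrg-2 encodes a heme-binding membrane protein of the hypodermis, lies on chromosome V at positions 12409415 to 12410513, and had 11.7, 9.38 and 10.1 CPM on cco-1 RNAi. On control it had 0.826, 0.0808 and 0.558 CPM, so it was near its limit of detection there, and the change was 2.97 ± 0.15 (adjusted p = 8.5e-16). The gene hrg-3 encodes a secreted heme carrier that brings heme from the intestine to other tissues and embryos. It had 5.64, 4.85 and 4.71 CPM on cco-1 RNAi and 0.151, 0.268 and 0.2 CPM on control, a few reads.

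The abundant member was asp-10, now hrg-7, on chromosome V at positions 12742041 to 12744171, which encodes an aspartic protease-like protein that signals heme status between tissues. It had 438, 403 and 394 CPM on cco-1 RNAi, against 78.7, 72.4 and 83.4 CPM on control. The groups were 5.27 times apart, with a change of 2.38 ± 0.05 (adjusted p = 7.79e-24). The heme importer gene hrg-1, which acts at endosomes and lysosomes, had 25.2, 26.6 and 22.5 CPM on cco-1 RNAi and 7.79, 7.9 and 8.01 CPM on control. The importer gene hrg-4 of the intestinal surface averaged 6.62 ± 0.464 CPM on cco-1 RNAi and 3.73 ± 0.842 CPM on control. The gene R186.1, now hrg-9, averaged 4.91 ± 0.503 CPM on cco-1 RNAi and 1.65 ± 0.297 CPM on control (SD, n = 3 each).

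Beyond these, the heme exporter gene mrp-5, an ABC transporter of the intestine, had 126, 125 and 126 CPM on cco-1 RNAi and 92, 88.8 and 87.9 CPM on control, a change of 0.49 ± 0.05. The copper transporter gene F58G6.9, now chca-1, averaged 31.7 ± 1.24 CPM on cco-1 RNAi and 10.9 ± 1.11 CPM on control. The ferritin gene ftn-2, for iron storage, fell by 0.79 (SE 0.06), to 100, 89.2 and 87.1 CPM on cco-1 RNAi against 154, 157 and 170 CPM on control. The iron importer gene smf-3 also fell, by 0.82 (SE 0.14), at levels of 1.18 ± 0.423 CPM on cco-1 RNAi and 2.82 ± 0.522 CPM on control. The iron-sulphur cluster genes frh-1, Y45F10D.4 (iscu-1) and abtm-1 did not pass.

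**Figure D3:**
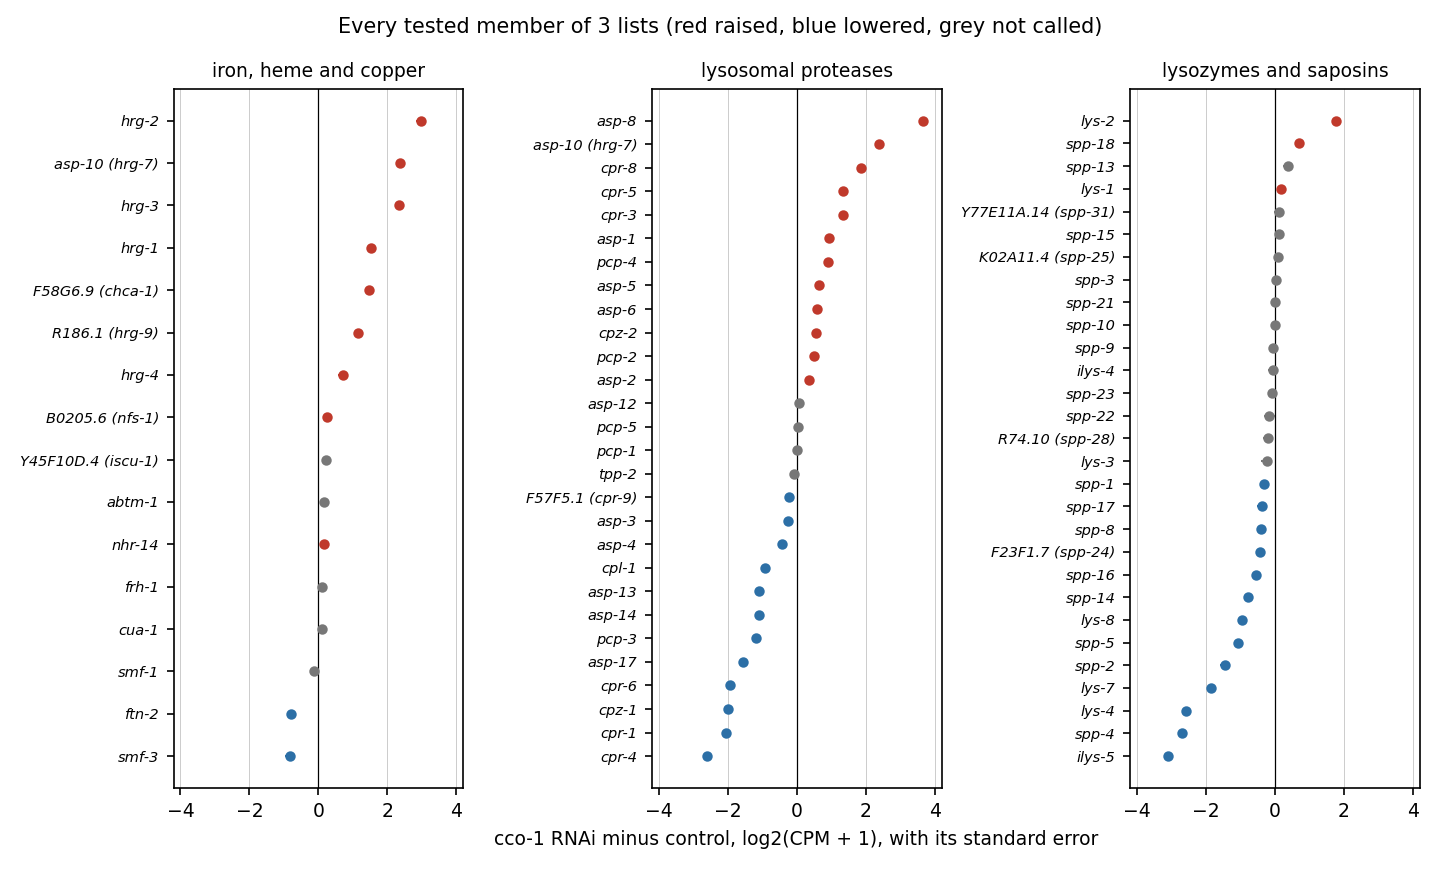
Change with cco-1 RNAi in N2 (x axis, difference in log2(CPM + 1), with its standard error) for every tested member of the lists of iron, heme and copper genes, lysosomal proteases, and lysozymes and saposins. In the first list the heme-responsive genes lie between 0.70 for hrg-4 and 2.97 for hrg-2, with the copper transporter gene F58G6.9 (chca-1) inside that range. In the second, 12 members rose and 12 fell, and in the third, 3 rose and 13 fell.

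Many genes of central carbon metabolism rose. In glycolysis and gluconeogenesis 14 of 25 genes rose and 3 fell. The aldolase gene aldo-1 had 337, 346 and 353 CPM on cco-1 RNAi, against 143, 144 and 142 CPM on control, a change of 1.27 ± 0.06 (adjusted p = 2.03e-16). The glyceraldehyde-3-phosphate dehydrogenase genes split by pair: gpd-2 and gpd-3, neighbours on chromosome X, rose by 0.84 ± 0.06 and 0.57 ± 0.05. The pair gpd-1 and gpd-4, named after their values were seen, fell by 0.33 and 0.43. Members of each pair are nearly identical, so how reads were divided within a pair is uncertain. In the tricarboxylic acid cycle 15 of 28 genes rose and 1, the malic enzyme gene men-1, fell. The citrate synthase gene cts-1 averaged 1222 ± 34.8 CPM on cco-1 RNAi and 845 ± 26.2 CPM on control. The isocitrate dehydrogenase gene idh-1 averaged 545 ± 12.5 CPM on cco-1 RNAi and 340 ± 17.5 CPM on control (SD, n = 3 each). The gene icl-1, whose enzyme runs the glyoxylate shunt from fat to sugar, rose by 0.84 ± 0.11. The alcohol dehydrogenase gene sodh-1 was 3.57 times as high on cco-1 RNAi.

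Ubiquinone synthesis was led by coq-1, which encodes the synthase of the quinone's tail and had 45.6, 44.6 and 44.2 CPM on cco-1 RNAi against 20.8, 21.3 and 19.5 CPM on control. The change of 1.09 ± 0.06 was the largest on that list, on which 5 of 11 genes rose, or 3 without control replicate 1, and 2 fell. Of 16 genes for stores of sugar and glycerol 8 fell (50%), or 5 without control replicate 1. The 3 that rose (18.8%) are near the 17.5% of all genes. The glycerol-3-phosphate dehydrogenase gene gpdh-1, which makes glycerol under osmotic stress, had 1.15, 1.05 and 1.34 CPM on cco-1 RNAi and 11.9, 13.5 and 13.7 CPM on control, so it was at 9.08% of the control.

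Desaturase genes moved in both directions. The desaturases that introduce the first double bond fell: fat-7 on chromosome V had 4.93, 3.89 and 3.96 CPM on cco-1 RNAi and 69.6, 68.8 and 67.4 CPM on control, and fat-5 had 7.8, 7.36 and 7.73 CPM on cco-1 RNAi and 51.4, 54.8 and 56.3 CPM on control. Their relative fat-6 averaged 261 ± 11.7 CPM on cco-1 RNAi and 300 ± 14.2 CPM on control (SD, n = 3 each). Its fall of 0.20 was not called without cco-1 replicate 2 or 3 or control replicate 2 or 3, and fat-6 and fat-7 are similar enough that reads could be shared. The desaturases of polyunsaturated fat fat-2 and fat-3 rose, by 0.31 ± 0.06 and 0.27 ± 0.07, and fat-4 did not pass. The gene fat-1 rose by 0.18 with libraries that overlapped, and was not called without cco-1 replicate 1 or 2 or control replicate 1 or 3.

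Of 24 genes for making and elongating fat, 10 fell and 7 rose, or 4 without cco-1 replicate 2. The pair acs-22 and dgat-2, a fatty acid transporter and an acyltransferase that together make triglyceride at lipid droplets, had 10.1 ± 0.606 and 2.77 ± 0.653 CPM on cco-1 RNAi and 45.2 ± 2.77 and 15 ± 0.894 CPM on control (SD, n = 3 each). The acyltransferase gene acl-7 rose by 1.02 ± 0.08. Of 48 genes for activating and burning fat, 18 fell (37.5%) and 9 rose (18.8%), against 16.4% and 17.5% of all genes. The rise of acs-2, which activates fatty acids for mitochondrial oxidation, stood beside falls of all 7 tested genes of acyl-CoA oxidases, which open peroxisomal oxidation. Of these acox-2 and acox-3, now acox-1.2 and acox-1.3, fell most, by 1.38 and 1.35. The thiolase gene daf-22 of the same route fell by 0.55 (SE 0.07), and the carnitine palmitoyltransferase gene cpt-5 by 1.27 (SE 0.09). The oxidase family and daf-22 were picked out after their values were seen.

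Protease genes of the lysosome moved in both directions. Of 28 lysosomal and related proteases 12 rose and 12 fell. The cathepsin B-like genes held both directions: cpr-4 had 35.6, 35 and 36.3 CPM on cco-1 RNAi and 212, 234 and 223 CPM on control, and cpr-1 had 49.9, 58.6 and 55.5 CPM on cco-1 RNAi and 213, 254 and 228 CPM on control. The gene cpr-5 had 896, 911 and 1010 CPM on cco-1 RNAi, against 362, 363 and 377 CPM on control, and cpr-3 and cpr-8 rose by 1.34 ± 0.06 and 1.87 ± 0.10. The groups of these genes did not overlap in either direction. The cathepsin L gene cpl-1 fell to 915 ± 30.8 CPM on cco-1 RNAi, against 1736 ± 41.1 CPM on control. The aspartyl protease genes rose in 6 and fell in 5 of 12. Outside the rule for named genes are cpr-3, cpr-5, cpr-8 and cpl-1.

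Other lysosomal hydrolases fell in 14 of 32 genes and rose in 0, or in 1 without control replicate 1 or 2. The deoxyribonuclease gene nuc-1, which clears the DNA of ingested bacteria and dead cells, had 15, 15.1 and 15.5 CPM on cco-1 RNAi and 59.8, 65.7 and 60.3 CPM on control. The glucosidase genes aagr-1 and gba-4 fell by 1.36 and 1.46. Of 21 subunit genes of the V-ATPase, a proton pump of the lysosome and of other membranes, 13 rose. The intestinal subunit gene vha-6 led with 0.92 ± 0.08, and the next was vha-10 at 0.33. These values do not tell the pump of the lysosome from that of other membranes. In autophagy 8 of 28 genes fell, or 5 without cco-1 replicate 1, and 1 rose, or 2 without control replicate 1. That 1 was sqst-1, the p62 cargo receptor, with 126, 132 and 133 CPM on cco-1 RNAi and 78.7, 81.7 and 79.8 CPM on control. The difference of lgg-1, which encodes the ubiquitin-like protein of the autophagosome, did not pass.

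Markers of the intestine, where many of these genes act, gave no common direction. Of 24, 6 rose (25%) and 10 fell (41.7%), against 17.5% and 16.4% of all genes. Their summed level was 11600 to 11672 CPM on cco-1 RNAi and 7176 to 7207 CPM on control, and without asp-1, a single abundant protease, it was 2944 to 3014 CPM on cco-1 RNAi and 2704 to 2742 CPM on control. All 24 were detected in both groups, the lowest being mtl-1 with means of 0.879 CPM on cco-1 RNAi and 2.37 CPM on control. The intestinal intermediate filament gene ifb-2 had 234, 228 and 238 CPM on cco-1 RNAi and 98.6, 106 and 107 CPM on control. The part of such markers in the changes above was not tested.

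Protein quality control outside mitochondria went partly down. In the proteasome 18 of 33 genes fell and 0 rose, with a lowest change of -0.30, and 11 fell without cco-1 replicate 3. In the endoplasmic reticulum 7 of 23 genes fell, led by dnj-7 and pdi-6, which fell by 0.61 and 0.51. The difference of hsp-4, the chaperone gene used as reporter of endoplasmic reticulum stress, was -0.05 ± 0.05 and did not pass. Of 26 genes of the cytosolic heat shock response 9 fell (34.6%) and 5 rose (19.2%), against 16.4% and 17.5% of all genes. Without cco-1 replicate 3 the count raised was 8. The 5 that rose were hsp-1, whose value is fixed by its rank, and the inducible genes hsp-17, hsp-16.2, hsp-16.41 and hsp-70. The small heat shock gene hsp-17 had 109, 105 and 102 CPM on cco-1 RNAi and 14.9, 14.7 and 17.4 CPM on control. The gene hsp-16.2 had 10.6, 10.4 and 10.7 CPM on cco-1 RNAi and 1.08, 0.8 and 1 CPM on control, and its divergently placed neighbour hsp-16.41 rose with it by 2.36 ± 0.14. Of the 8 genes of the cytosolic chaperonin, picked after their values were seen, 4 fell and 0 rose.

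Detoxification genes split within their families. Of 55 cytochrome P450 genes 14 rose and 21 fell. The gene cyp-14A4 had 10.3, 8.5 and 9.07 CPM on cco-1 RNAi and 0.318, 0.336 and 0.701 CPM on control. In the other direction, 6 of 7 genes of the cyp-35 family, which was singled out after the values were seen, fell, and the difference of cyp-35A4 did not pass. Its member cyp-35C1 had 4.19, 4.13 and 4.91 CPM on cco-1 RNAi and 21.9, 24.5 and 22.5 CPM on control. Of 57 glucuronosyltransferase genes 14 rose (24.6%) and 26 fell (45.6%). Of 37 glutathione S-transferase genes 10 rose (27%) and 7 fell (18.9%), against 17.5% and 16.4% of all genes. The omega-class transferase gene gsto-1 had 21.1, 20.4 and 21.2 CPM on cco-1 RNAi and 2.99, 3.9 and 4.78 CPM on control. The widely used oxidative stress reporters gst-4 and sod-3 did not pass, with differences of 0.18 ± 0.11 and 0.07 ± 0.13.

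Among superoxide dismutases, catalases and peroxidases 8 of 27 rose (29.6%) and 5 fell (18.5%), against 17.5% and 16.4% of all genes. The peroxisomal catalase gene ctl-2 averaged 33.5 ± 3.15 CPM on cco-1 RNAi and 90.9 ± 1.19 CPM on control. The mitochondrial thioredoxin gene trx-2 averaged 27.7 ± 3.06 CPM on cco-1 RNAi and 17.2 ± 1.48 CPM on control (SD, n = 3 each). The metallothionein genes mtl-1 and mtl-2 fell by 0.83 and 1.41, opposite to cdr-2 and cdr-4. Of the 7 tested metallothionein and cadmium-responsive genes 2 rose, 3 fell and 2 did not pass. Of 19 genes of the hypoxia and sulphide response 5 rose (26.3%) and 2 fell (10.5%), with a median of -0.00. The count raised was 3 without cco-1 replicate 1, cco-1 replicate 2 or control replicate 1. The short-chain dehydrogenase gene dhs-26 had 0.341, 0.659 and 0.213 CPM on cco-1 RNAi and 6.54, 11.4 and 8.01 CPM on control.

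Genes of lysozymes and saposin-like proteins fell in larger number than they rose, and other defence genes moved in both directions. Of 29 lysozymes and saposin-like antimicrobial proteins 13 fell and 3 rose. The invertebrate-type lysozyme gene ilys-5 had 36.9, 36.4 and 37.7 CPM on cco-1 RNAi, against 289, 342 and 341 CPM on control, a change of -3.09 ± 0.10 (adjusted p = 8.14e-20). The lysozyme gene lys-4 averaged 5.61 ± 0.797 CPM on cco-1 RNAi and 38.4 ± 1.53 CPM on control. The saposin-like gene spp-4 averaged 10.4 ± 0.675 CPM on cco-1 RNAi and 73.6 ± 8.27 CPM on control (SD, n = 3 each), and its neighbours spp-2 and spp-5 fell with it, by 1.46 and 1.07. In contrast, lys-2 had 189, 175 and 153 CPM on cco-1 RNAi and 51.6, 46.5 and 50.6 CPM on control. The thaumatin-like gene thn-2 had 3.41, 4.78 and 2.94 CPM on cco-1 RNAi and 29.4, 32 and 30.8 CPM on control. Of 111 C-type lectin genes 28 rose (25.2%) and 36 fell (32.4%), against 17.5% and 16.4% of all genes. Of these, 10 rose and 15 fell at least 2-fold. Of 27 genes of the infection response 9 rose and 9 fell (33.3% each). Of 27 genes of the response to intracellular pathogens 6 rose (22.2%) and 3 fell (11.1%).

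**Figure D4:**
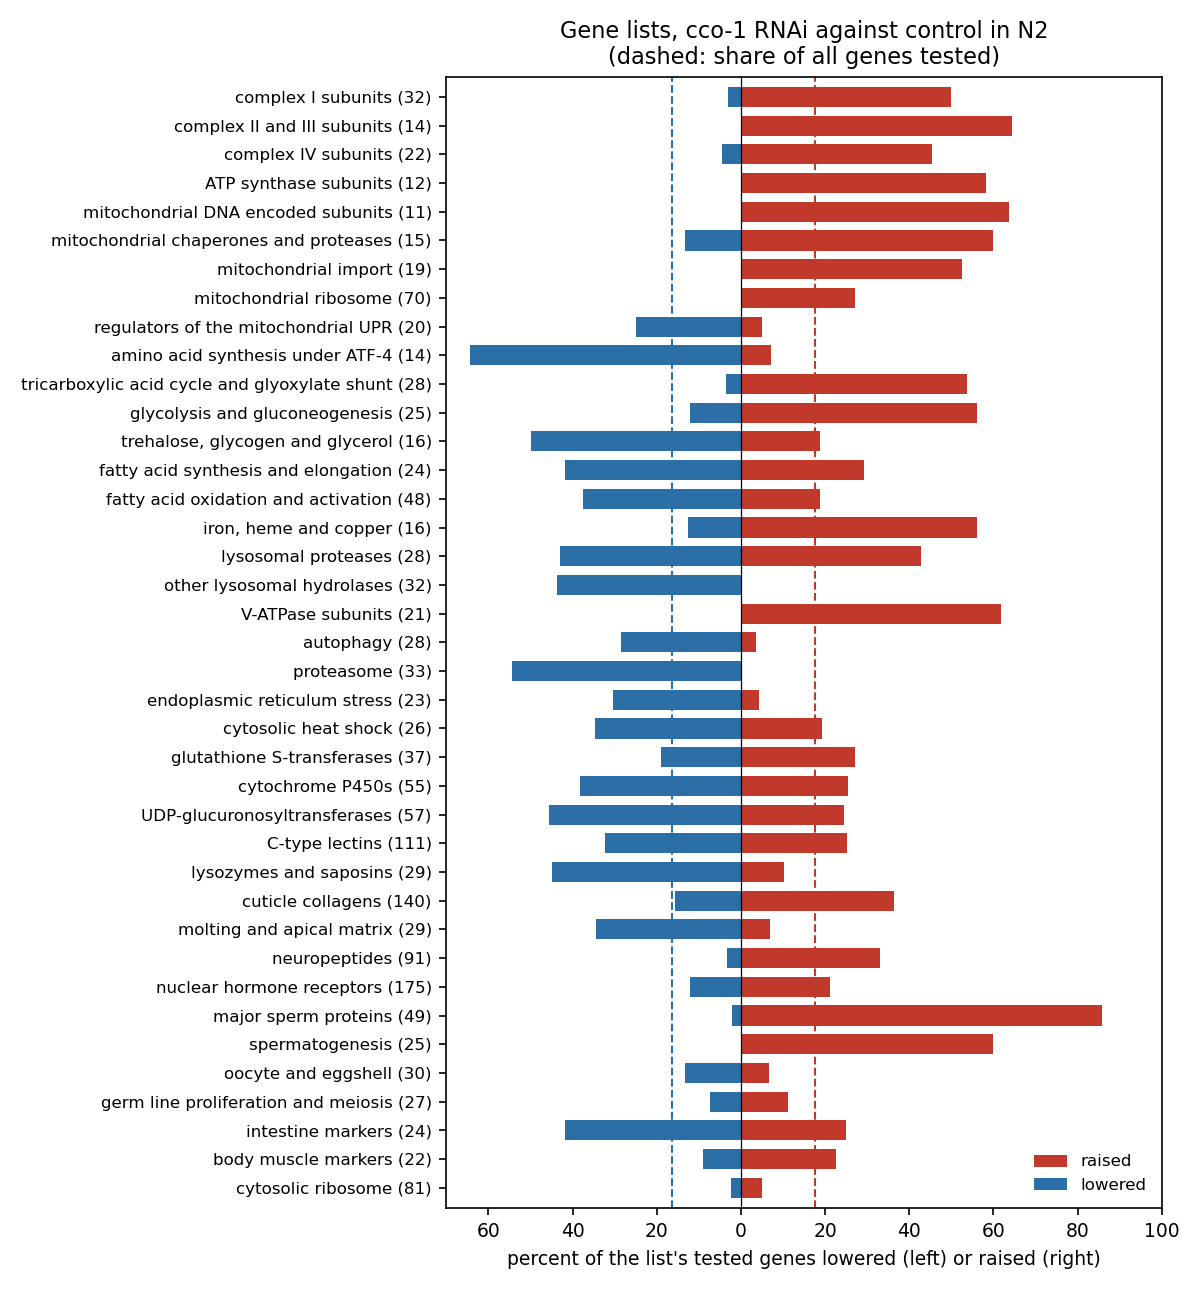
Share of each list's tested genes that rose (red, to the right) or fell (blue, to the left) with cco-1 RNAi in N2, in percent, with the number tested in brackets. Dashed lines mark the shares over all genes tested, 17.5% raised and 16.4% lowered; the major sperm proteins reach 85.7% raised, and the list of amino acid synthesis under ATF-4 has 9 of 14 lowered.

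Yolk transcripts whose level can be read fell, and most sperm transcripts rose. Hermaphrodites make sperm as late larvae and then switch to oocytes, and the intestine makes yolk proteins for those oocytes in adults. The yolk gene vit-3 had 233, 259 and 281 CPM on cco-1 RNAi, against 5815 CPM in each control library, and vit-4 had 315, 355 and 371 CPM on cco-1 RNAi, against 5261, 5261 and 4990 CPM on control. They are neighbours on chromosome X, between positions 3558769 and 3572549, and reads could be shared among the similar genes vit-3, vit-4 and vit-5. The gene vit-1 had 1099, 1317 and 1317 CPM on cco-1 RNAi and 8657, 8657 and 8656 CPM on control. The control values are equal because the normalization gives each rank 1 value. These genes ranked between 3 and 8 in every control library, and on cco-1 RNAi vit-5 ranked 43 to 62 and vit-3 ranked 560 to 701. The 2 most abundant genes by CPM in all 6 libraries were vit-2 and vit-6, so the deposited values are the same in both groups and cannot show whether they changed. For the same reason the rises of eef-1A.1, asp-1, rps-8, hsp-1 and ant-1.1, which are among the most abundant genes, are steps between fixed values, and their SD is no error.

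Of 49 major sperm protein genes and relatives 42 rose and 1 fell, or 2 without cco-1 replicate 3, with a median of 0.67. Their summed level was 1144 to 1278 CPM on cco-1 RNAi and 613 to 760 CPM on control. The sperm gene sss-1 had 30.5, 34.9 and 30.2 CPM on cco-1 RNAi and 14.7, 17.8 and 14.7 CPM on control. Major sperm protein genes are nearly identical, so reads may be spread among them, and they are not independent. Of 25 other genes of spermatogenesis 15 rose and 0 fell. The sperm phosphatase genes gsp-3 and gsp-4 rose by 0.88 ± 0.08 and 0.72 ± 0.07. Oocyte and eggshell genes stayed nearer to the background, with 2 of 30 raised, or 1 without control replicate 2, and 4 lowered. Their summed level was 22415 to 22698 CPM on cco-1 RNAi and 22655 to 25013 CPM on control. The eggshell genes perm-2 and perm-4 fell by 0.48 and 0.38. The labels give a range of stages for both groups, and the part of the stage in any change above was not tested.

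Of 140 collagens 51 rose (36.4%), or 30 without control replicate 1, and 22 fell (15.7%, near the 16.4% of all genes). The collagen gene col-39, outside the rule for named genes, averaged 111 ± 8.17 CPM on cco-1 RNAi and 55.6 ± 3.06 CPM on control. In contrast, col-43 averaged 3.33 ± 0.298 CPM on cco-1 RNAi and 19 ± 2.28 CPM on control, and col-95 averaged 232 ± 20.1 CPM on cco-1 RNAi and 538 ± 3.94 CPM on control (SD, n = 3 each). Of 29 genes of molting and of the apical matrix 10 fell, among them noah-1 and noah-2 by 0.71 and 0.70, and 2 rose. The count raised was 4 without cco-1 replicate 1 or control replicate 2 and 1 without control replicate 3. Hypodermis markers rose in 6 of 20 (30%) and fell in 4 (20%). Their summed level was 2067 to 2111 CPM on cco-1 RNAi and 1693 to 2028 CPM on control. Of 91 neuropeptide genes 30 rose and 3 fell, all by less than 2-fold, and 5 fell without control replicate 1. The largest fall was that of nlp-34, an antimicrobial-type peptide of the epidermis, at -0.86 ± 0.14, and nlp-6 rose by 0.41 ± 0.07. Neuron markers rose in 7 of 23 (30.4%) and fell in 1 (4.35%). Their summed level was 735 to 764 CPM on cco-1 RNAi and 641 to 656 CPM on control. Of 175 nuclear hormone receptor genes 37 rose (21.1%) and 21 fell (12%), near the shares over all genes. The receptor gene nhr-115 had 11, 9.68 and 11.2 CPM on cco-1 RNAi and 2.22, 2.81 and 2.65 CPM on control.

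The changes were not spread evenly over the genome. On the X chromosome 27% of 2007 tested genes fell and 12% rose, whereas on the autosomes 14.7% of 12467 fell and 18.4% rose. The X share that fell was above the autosomal share at every level of expression: 22.3% against 15.4% under 10 CPM, 31.8% against 14.3% from 10 to 100 CPM, and 36.4% against 13.3% above. The share that rose was lower on X under 10 CPM, at 8.96% against 19.9%, and from 10 to 100 CPM, at 13.5% against 16.8%. Above 100 CPM it was higher on X, at 27.9% against 17.4%. The median change was -0.09 on X and 0.02 on the autosomes, and above 100 CPM it was -0.05 and 0.01. X genes are silent through most of the germ line in this species, and the summed germ line markers were 6921 to 7076 CPM on cco-1 RNAi and 6659 to 7089 CPM on control. Their part in the pattern was not tested. Chromosome IV had the highest autosomal share raised, 21.8%, and 21% without the sperm lists.

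Some neighbouring genes carried the same call. The next gene along the chromosome had also risen for 23.7% of the genes that rose, against 17.5% of all genes, and had also fallen for 23.8% of those that fell, against 16.4%. On chromosome II, positions 1597906 to 1610730, 5 neighbours rose together, 3 BATH-domain genes (bath-46, bath-26 and bath-47) and the F-box genes fbxa-162 and fbxa-163, which belong to families that recruit targets for ubiquitin ligases. The gene bath-46 had 7.17, 6.83 and 6.19 CPM on cco-1 RNAi and 0.397, 0.56 and 0.268 CPM on control. The longest run of genes that fell held 7, from sul-1 to F11D5.7 on chromosome X, positions 3267294 to 3306939. In it K09C4.5 averaged 1.75 ± 0.463 CPM on cco-1 RNAi and 10.6 ± 0.936 CPM on control, whereas sul-1, hsp-2 and F11D5.5 changed by -0.49, -0.45 and -0.51 and lost their calls without single libraries. These runs were picked after their values were seen.

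The same RNAi was given to VC3201 worms and together with elt-2 RNAi. The 30 largest changes were chosen for their size in N2, which favours smaller values elsewhere, so the counts here describe them and test nothing. In VC3201, where 26.9% of all genes tested rose and 37.1% fell, 11 of the 15 raised genes rose, 2 fell and 2 did not pass, and 14 of the 15 lowered genes fell and 1 rose. The change differed between the strains for 12 of the 15 raised and 12 of the 15 lowered genes, against 40% of all genes. Among the raised genes it was smaller in VC3201 in 10 and larger in 2, hsp-16.2 and hsp-16.41. For example hrg-2 had a mean of 1.29 CPM on cco-1 RNAi and 0.349 CPM on control in VC3201. Over all genes, 66% of those that rose in N2 also rose in VC3201, and 67.8% of those that fell also fell there.

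When cco-1 RNAi was added to elt-2 RNAi in N2, 10.3% of all genes tested rose and 8.9% fell. There, 14 of the 15 raised genes still rose and 11 of the 15 lowered genes still fell and 1 rose. The change differed from that on control bacteria for all 30, against 13% of all genes, and was smaller in each. The acyl-CoA synthetase gene acs-2 averaged 59.7 CPM on both RNAi and 58.6 CPM on elt-2 RNAi, a difference of 0.03, against a change of 3.14 ± 0.11 on cco-1 RNAi alone. Its level on elt-2 RNAi alone was already above the 8.11 ± 1.94 CPM of the control. Several lowered genes, among them asm-3 and spp-4, were at 0.253 and 0.354 CPM on elt-2 RNAi alone.

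**Figure D5:**
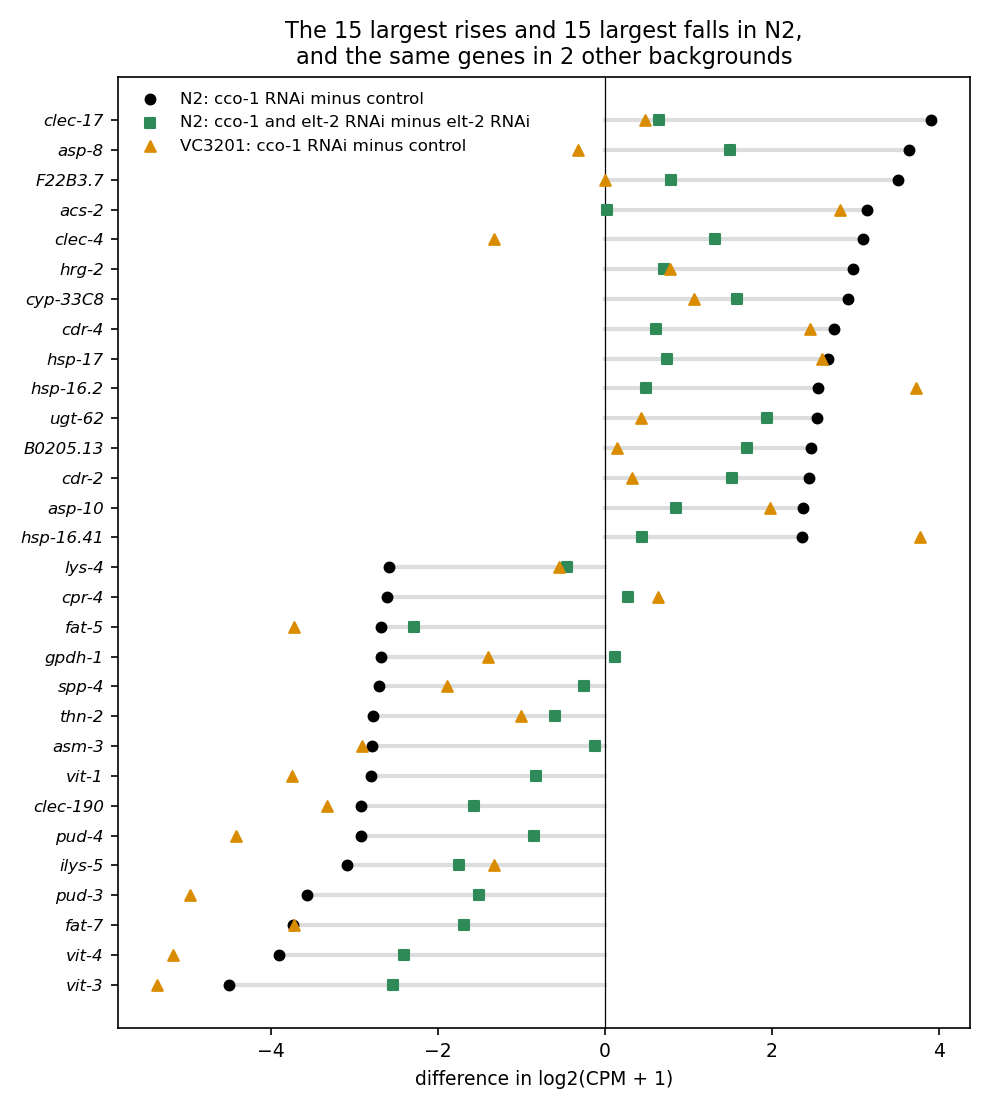
Change with cco-1 RNAi (x axis, difference in log2(CPM + 1)) for the 15 genes with the largest rise and the 15 with the largest fall in N2 (black), for the same genes when cco-1 RNAi is added to elt-2 RNAi in N2 (green squares) and in VC3201 (orange triangles). On elt-2 RNAi all 30 lie nearer to 0 than in N2 on control bacteria; in VC3201 hsp-16.2 and hsp-16.41 lie beyond the N2 value, at 3.73 and 3.78, and cpr-4 lies on the other side of 0, at 0.64.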

How the data were processed

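Whole-worm polyA RNA of 24 libraries was sequenced. The authors used STAR 2.73a and edgeR 3.24.3 with WBcel235 (ce11), per the submitters' processing notes. The sources used here do not give the read counter. The deposited CPM of 16927 genes sum to 1000373 in every library and had been quantile-normalized by the authors, as the values show. A gene's value is therefore set by its rank, which fixes the most abundant genes and hides changes in total RNA. The authors' deposited log2 fold changes and p-values come from Limma-Voom, per the file headers, and were used only where named. Positions and current names were looked up in Ensembl's WBcel235 gene models, where 16822 of the table's IDs were found.

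The planned count model needs counts, so limma 3.58.1 in R 4.3.3 was used on log2(CPM + 1), a scale that understates changes of low genes. Group means of 8 groups of 3 libraries were fitted with a trended prior on 16 residual degrees of freedom, over 14561 genes with a group mean of at least 1 CPM. P-values were adjusted after Benjamini and Hochberg over all genes tested, a gene was called at an adjusted p under 0.05, and ± in differences is the standard error. The fit was tested on simulated data. All 3 libraries of each group were kept, and the total reads of a library are not known from these values.

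Members and the 67 gene lists were chosen with earlier results of these data known. Genes named are cco-1, elt-2 and atfs-1, the 15 largest changes in each direction at 10 CPM or more with no overlap between groups, up to 4 members of each list by p with up to 2 of the largest p, the reporters of unfolded protein responses, and the 5 most abundant called genes in each direction. Other genes named were chosen after their values were seen. Alternatives were other pseudocounts, filters, weights, samples and scalings, a replicate block, a 1.5-fold minimum, and leaving out each library. No sequences were used here.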

Additional observations from a re-analysis of the deposited data

Results flagged for a closer look

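The cco-1 RNAi change differed between the strains, by the interaction contrast of the same limma fit, for 24 of the 30 genes with the largest change in N2. These genes were picked for their size in N2, and 40% of all genes tested also differed, so the values are a description. Each value is the VC3201 change minus the N2 change in log2(CPM + 1).

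Among genes that rose in N2, the difference was -4.41 for the lectin gene clec-4, which fell by 1.32 in VC3201. It was -3.97 for the protease gene asp-8, which fell by 0.32 there. For F22B3.7 it was -3.51, and for clec-17 -3.43. It was -2.32 for B0205.13, -2.19 for hrg-2, -2.12 for cdr-2, -2.10 for ugt-62 and -1.84 for cyp-33C8. The heme signalling gene asp-10 differed least, by -0.40, with changes of 1.98 in VC3201 and 2.38 in N2. The heat shock genes hsp-16.41 and hsp-16.2 rose further in VC3201, by 1.42 and 1.17.

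Among genes that fell in N2, the fall was deeper in VC3201 for the yolk genes vit-3, vit-4 and vit-1, by -0.87, -1.28 and -0.95, for pud-3 and pud-4, by -1.41 and -1.50, and for the desaturase gene fat-5, by -1.05. The fall was shallower there for the defence genes ilys-5, thn-2, spp-4 and lys-4, by 1.76, 1.77, 0.81 and 2.03, and for gpdh-1, by 1.29. The protease gene cpr-4 differed by 3.25, with a change of 0.64 in VC3201 and -2.61 in N2.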

How the results depend on the processing

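The counts of genes raised and lowered were 2541 and 2385. They stayed within 1.5 times of these under every alternative but the 1.5-fold minimum, under which 202 rose and 211 fell, since most called changes were smaller. Leaving out 1 library gave 2146 to 2331 raised and 1980 to 2172 lowered. The fit of the 6 libraries alone gave 2139 and 2095, and the quantile normalization partly undone gave 2935 and 2068, with a median over all genes of 0.03. With the replicate number as a block, 2551 rose and 2379 fell. Deviations of same-numbered libraries correlated at 0.124, 0.242 and -0.074, and those of differently numbered libraries at -0.217 to 0.088. Whether same-numbered libraries share a batch was not tested. Among the 404 genes followed, none of the 272 called changed direction under any alternative; genes that were not called could change sign. The cco-1 transcript changed by between -1.24 and -1.08 without single libraries. Of the 272 called, 255 were called under every alternative but the 1.5-fold minimum, and 17 lost the call without some single library: atfs-1, hsp-60, jmjd-3.1, fzo-1, rla-2, rpl-3, fat-1, aakg-4, ins-24, ins-26, skr-3, daz-1, rec-8, mcm-7, glt-3, aqp-8 and vha-5. In the other direction elt-2 gained a call with only the 6 or the 12 N2 libraries, and atp-6 with only the 6 or without cco-1 replicate 3. At an unadjusted p under 0.05, 6215 genes (42.7%) differed. Low genes rest on few reads, and changes of the most abundant genes cannot be read from values fixed by rank.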

Other observations

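Of 20 pharynx markers 8 rose (40%, against 17.5% of all genes), or 5 without cco-1 replicate 2, and 1 fell, and their summed level was 380 to 476 CPM on cco-1 RNAi and 328 to 388 CPM on control. The pharyngeal myosin genes myo-1 and myo-2 rose by 0.43 and 0.36, whereas pha-4, the gene of the factor that specifies the pharynx, fell by 0.49. In body muscle 5 of 22 markers rose (22.7%, near the share over all genes), or 3 without cco-1 replicate 2 or control replicate 1, and 2 fell, or 1 without cco-1 replicate 1 or 2 or control replicate 2 or 3. The myosin heavy chain gene unc-54 averaged 3471 CPM on cco-1 RNAi and 2635 CPM on control. It ranked 16 to 29 on cco-1 RNAi and 29 to 46 on control, and its value is set by that rank.

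Genes of the propionate and vitamin B12 response fell in larger number than they rose. Of 17 genes on that list 7 fell and 2 rose, and between 0 and 1 rose without any single library but control replicate 3. The shunt gene F09F7.4, now hach-1, fell by 0.64, and the receptor gene nhr-114, which acts in the vitamin B12 response in the intestine, by 0.72. In the methionine cycle and phosphatidylcholine synthesis 5 of 18 genes fell (27.8%) and 4 rose (22.2%), against 16.4% and 17.5% of all genes. The methionine synthase gene metr-1 fell by 0.34. The methyltransferase genes that make phosphatidylcholine from phosphoethanolamine split, with pmt-2 at -0.56 and pmt-1 at 0.31.

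Transporters and secreted proteins held larger single changes. Of 48 ABC transporter genes 12 rose (25%) and 9 fell (18.8%), against 17.5% and 16.4% of all genes. The P-glycoprotein gene pgp-9 averaged 73.7 CPM on cco-1 RNAi and 23 CPM on control, and the gene pmp-5, of the peroxisomal class of ABC transporters, averaged 31.6 CPM on cco-1 RNAi and 108 CPM on control. Of 51 transthyretin-like genes 13 fell (25.5%) and 8 rose (15.7%). Here ttr-44, which shares exon bases with a gene on the opposite strand, averaged 9.2 CPM on cco-1 RNAi and 40.3 CPM on control, and ttr-14 averaged 40.4 CPM on cco-1 RNAi and 20.2 CPM on control. In mitochondrial dynamics and mitophagy 4 of 16 genes rose (25%), led by the fission gene drp-1 with 0.45, and 0 fell. Of 30 genes of DNA replication and the cell cycle 6 fell (20%, against 16.4% of all genes), among them mcm-2 by 0.25, and 2 rose, of which between 0 and 1 rose without any single library.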
